A study of Mus musculus with 14 samples.

Results

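BAP1 is a deubiquitinase that removes ubiquitin from histone H2A, and it works in the PR-DUB complex with a set of partner proteins. The genes described here are the 10 that encode BAP1 and these partners (Bap1, Asxl1, Asxl2, Asxl3, Foxk1, Foxk2, Hcfc1, Ogt, Kdm1b and Mbd5), out of 21779 protein-coding genes. They were chosen by name, all 10 are in the RefSeq gene table, and for each one every peak that touched the gene span or the 1 kb on either side was taken. Chromatin immunoprecipitation with sequencing (ChIP-seq) had been made in mouse embryonic stem cells of the C57BL/6 background. Every group, wild type and controls included, had spent 4 days in 100 nM 4-hydroxytamoxifen and in emricasan, which blocks caspases, at 10 µM.

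RNF2 was precipitated from wild-type cells (2 libraries), BAP1 knockout cells (2 libraries) and RNF2 knockout cells (1 library). BAP1 was precipitated from cells labelled BAP1-C91A (1 library) and from BAP1 knockout cells (1 library). The protocol writes the former genotype as Bap1C91A/-, so these cells carry 1 mutant and no normal copy, and they were crosslinked first with 2 mM disuccinimidyl glutarate for 30 min. The labels do not say which bases of Bap1 the knockout lacks, how many clones were used, or whether a first and a second library came from separate cultures. Each value below is thus a value of 1 library, and the spread between 2 libraries of a genotype may be technical.

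PR-DUB opposes Polycomb repressive complex 1, whose ligase RNF2 (RING1B) attaches ubiquitin to histone H2A, mostly at silent developmental genes in embryonic stem cells. In PR-DUB, BAP1 is the enzyme and the ASXL proteins are the cofactors it needs for activity. FOXK1 and FOXK2 are forkhead factors that bind DNA, HCFC1 is a coregulator of transcription, and OGT adds N-acetylglucosamine to proteins, HCFC1 among them. KDM1B (LSD2) removes methyl groups from histone H3, and MBD5 has a methyl-CpG-binding domain. A peak here means a stretch where the authors' peak caller found more ChIP reads than in the matched input, at a q-value cutoff of 0.05. It says nothing of the share of cells or alleles that are bound.

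Promoter sequence is shown for 3 members with an RNF2 peak over the promoter and for 3 without one, so that the bound and unbound sequence can be compared. Each line gives the 250 bases before an annotated start (RefSeq, GRCm38.p6), read 5′ to 3′ on the gene's strand. In Bap1 (chr14:31251239-31251488, plus strand) capitals mark the bases that lay in the peaks of all 4 wild-type and BAP1 knockout RNF2 libraries. In Kdm1b (chr13:47043249-47043498, plus strand) they mark the bases in the peaks of all 3 libraries with a peak there, and in Foxk2 (chr11:121259737-121259986, plus strand) those of both libraries. In Asxl1 (chr2:153345580-153345829, plus strand) and Hcfc1 (chrX:73966358-73966607, minus strand) capitals mark motif matches. Ogt (chrX:101639801-101640050, plus strand) had neither a peak nor a match.
Bap1: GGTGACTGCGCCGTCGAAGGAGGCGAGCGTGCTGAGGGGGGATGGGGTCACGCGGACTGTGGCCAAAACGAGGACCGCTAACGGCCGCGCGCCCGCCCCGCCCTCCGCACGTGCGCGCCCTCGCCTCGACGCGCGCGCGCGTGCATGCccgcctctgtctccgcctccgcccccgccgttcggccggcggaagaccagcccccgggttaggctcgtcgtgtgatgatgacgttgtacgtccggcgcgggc
Kdm1b: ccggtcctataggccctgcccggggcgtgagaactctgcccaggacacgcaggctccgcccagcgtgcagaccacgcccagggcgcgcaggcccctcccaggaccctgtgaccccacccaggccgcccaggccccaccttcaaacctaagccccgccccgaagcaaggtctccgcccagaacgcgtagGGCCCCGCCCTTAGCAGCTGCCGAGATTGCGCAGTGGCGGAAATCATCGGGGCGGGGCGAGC
Foxk2: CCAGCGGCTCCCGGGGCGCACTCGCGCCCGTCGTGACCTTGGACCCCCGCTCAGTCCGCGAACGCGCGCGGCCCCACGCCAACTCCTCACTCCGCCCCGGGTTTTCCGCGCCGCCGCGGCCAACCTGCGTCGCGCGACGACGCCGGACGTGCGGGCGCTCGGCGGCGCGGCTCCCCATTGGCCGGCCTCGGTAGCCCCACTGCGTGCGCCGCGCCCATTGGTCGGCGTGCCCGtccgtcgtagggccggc
Asxl1: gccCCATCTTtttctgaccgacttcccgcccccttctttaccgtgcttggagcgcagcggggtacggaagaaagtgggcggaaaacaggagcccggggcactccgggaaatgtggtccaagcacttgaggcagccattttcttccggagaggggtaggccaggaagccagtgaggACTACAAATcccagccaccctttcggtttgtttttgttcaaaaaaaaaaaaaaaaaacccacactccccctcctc
Hcfc1: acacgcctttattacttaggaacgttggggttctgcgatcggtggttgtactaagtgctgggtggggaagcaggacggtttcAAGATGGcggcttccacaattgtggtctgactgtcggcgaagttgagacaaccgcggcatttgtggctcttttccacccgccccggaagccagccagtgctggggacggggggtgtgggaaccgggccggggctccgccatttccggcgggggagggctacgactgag
Ogt: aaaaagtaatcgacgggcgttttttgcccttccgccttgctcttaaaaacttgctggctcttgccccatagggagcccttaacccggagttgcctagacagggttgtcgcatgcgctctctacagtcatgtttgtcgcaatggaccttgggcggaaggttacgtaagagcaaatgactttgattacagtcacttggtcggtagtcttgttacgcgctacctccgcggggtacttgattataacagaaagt

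The capitals cover 148 of the 250 Bap1 bases, 62 of the Kdm1b bases and 233 of the Foxk2 bases. CpG dinucleotides, the usual landing ground of Polycomb complexes in mammals, were dense in the bound promoters. Over the full 300-base promoter (50 bases past the start included) Foxk2 held 59 CpGs, more than 99.9% of 21263 promoters of protein-coding genes. The Bap1 promoter held 50 (more than 98.9%) and the Kdm1b promoter 26 (more than 77.4%). The median over all promoters was 13, with 4 and 24 at the quartiles.

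Members without an RNF2 peak over the promoter spanned a range that met this one. Asxl2 held 36 CpGs and Asxl1 13, and in both the single RNF2 peak lay past the 300-base window. Hcfc1 held 21, Ogt 20 and 14 at its 2 annotated starts, and Mbd5 19 and 4. Hcfc1 at 21 CpGs without a peak and Kdm1b at 26 with one differ little. Over all genes, the median was 20 CpGs at promoters of genes that held RNF2 in the deeper wild-type library and 4 at those that did not. The promoter table held 8 of the 10 members; Foxk1 and Asxl3 are named only by their gene span.

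Motifs of 3 DNA-binding factors tied to the complex were counted on both strands of the full promoters. The forkhead motif GTAAACA was in no member promoter, beside 3.01% of all promoters. With so few member promoters, this is near the background. The YY1 motif AAGATGG occurred 2 times in Hcfc1 and 1 time in Asxl1 (6.24% of all promoters hold it), and the THAP11 motif ACTACANNT 1 time in Asxl1 (4.65%). The second Hcfc1 match lies past the bases shown. A match describes letters only.

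All ChIP libraries differed in depth, and the first and second RNF2 libraries also differed in how peaks were called. The first wild-type and BAP1 knockout libraries held 58.4 and 54.1 M tags, and the second 149 and 139 M. The first were called with longer fragments than the second, for which the length was 100 bp. They listed 4038 and 7946 peaks (first) and 28770 and 39872 (second) on the main chromosomes. The RNF2 knockout library held 119 M tags and listed 0 peaks, so no member held one there. Of 8 embryonic stem cell marker genes, only Esrrb held an RNF2 peak in both wild-type libraries, as did 3 of 8 fibroblast markers (Prrx1, Thy1 and Twist2) and 13.4% of all genes. Peak lists hold no expression, so the labelled cell type could not be checked by it.

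RNF2 lay at Bap1 itself and at Asxl3 in every wild-type and BAP1 knockout library, and at no time at Hcfc1, Ogt or Mbd5. In the first wild-type library 2 of 10 members held a peak, Bap1 and Asxl3, beside 13.4% of all genes. In the second it was 7 of 10, with Asxl1, Asxl2, Foxk1, Foxk2 and Kdm1b added, beside 55.3%. In the first BAP1 knockout library 4 of 10 held a peak (Bap1, Asxl3, Foxk1 and Kdm1b), beside 26.9%, and in the second 5 of 10 (these and Foxk2), beside 63.5%. The members' shares stood above the background in 3 libraries and below it in the second BAP1 knockout library. The window takes in the whole gene, and the shares were not matched for gene length. Every member but Bap1, at 8.58 kb, was longer than the median protein-coding gene of 17.2 kb. With 10 genes, 1 gene more or less moves a share by 10 percentage points.

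**Figure D1:**
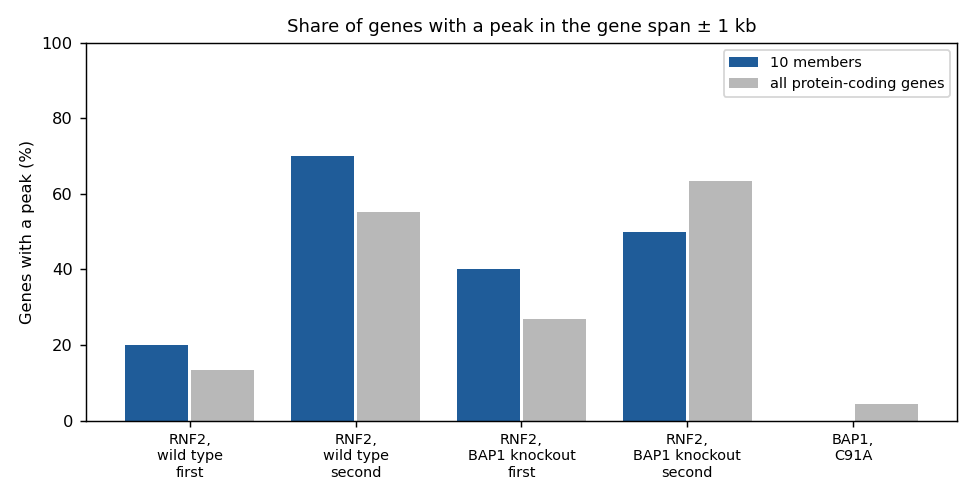
Percent of genes with a peak in the gene span or within 1 kb of it, for the 10 members (blue) and all 21779 protein-coding genes (grey), in 4 RNF2 libraries and the BAP1 ChIP library of C91A cells. Members held a peak at 2, 7, 4 and 5 of 10 genes in the RNF2 libraries from left to right, and at 0 in C91A cells.

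Across both libraries of each genotype, no member was gained or lost. Bap1 and Asxl3 were the 2 members with a peak in both wild-type libraries (13.4% of all genes), and Bap1, Asxl3, Foxk1 and Kdm1b the 4 with one in both BAP1 knockout libraries (26.9%). Gained meant a peak in each BAP1 knockout library with none in wild type, which 0 members and 0.133% of all genes met. Lost meant the mirror case, which 0 members and 0% of all genes met. With 2 libraries against 2, an exact permutation test (two-sided) cannot go below p = 0.333. No test was made of these counts.

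Within a pair of libraries the calls differed. The pairs, first with first and second with second, follow the order of the labels, which state no pairing. Between the first libraries, Foxk1 and Kdm1b had a peak in BAP1 knockout alone, as had 13.9% of all genes, and 0 members had one in wild type alone (0.377% of all genes). Between the second libraries, 0 members had a peak in BAP1 knockout alone (9.64% of all genes). Asxl1 and Asxl2 had one in wild type alone there, as had 1.4% of all genes. Foxk1 and Kdm1b did hold RNF2 in wild type at the greater depth, so they were without it in the shallower wild-type library alone. The plot of shares by library shows the count in each library and not which genes differ between them.

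**Figure D2:**
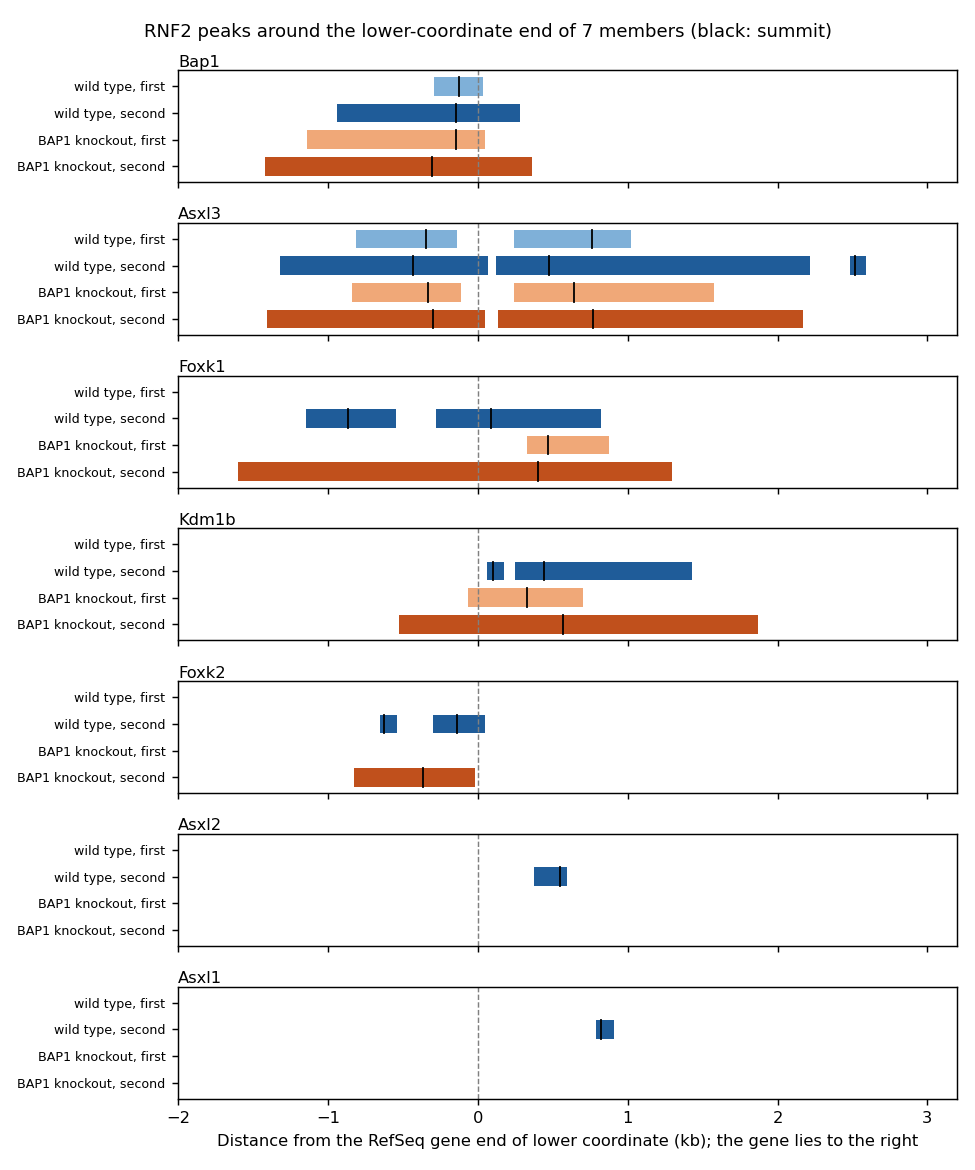
RNF2 peaks (bars) and their summits (black lines) of each wild-type (blue) and BAP1 knockout (orange) library, by distance in kb from the gene end of lower coordinate. Bap1 and Asxl3 have peaks in all 4 libraries, and Asxl1 and Asxl2 have 1 short peak each in the second wild-type library. Peaks more than 3.2 kb inside a gene are not drawn.

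Bap1 is the gene of the deubiquitinase (chromosome 14, 31251352 to 31259930, 8.58 kb). It held 1 RNF2 peak per wild-type and BAP1 knockout library, over the first base of this span. The annotated start used for the promoter, 31251489, lay inside the peak in the second libraries only. In the first libraries the peak ended before it. The peak measured 327 bp in the first wild-type and 1186 bp in the first BAP1 knockout library, and 1224 and 1780 bp in the second libraries. The authors' fold enrichment over local background was 3.61 and 3.50 in the first wild-type and BAP1 knockout libraries, and 9.80 and 11.2 in the second. These folds stand against each library's own background and depth and are not compared between libraries. The peak was shortest in the first wild-type library, and the first knockout peak was about as long as the second wild-type one. In rank within its own list, it exceeded 39.2% and 29.6% of peaks in the first wild-type and BAP1 knockout libraries, and 88.7% and 87.7% in the second. In this rank, the first libraries lay below the middle of their lists and the second well above it.

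All 4 Bap1 peaks shared the stretch chr14:31251060-31251386, 327 bp, which is the whole first wild-type peak. Relative to the first base of the RefSeq span, summits lay at -123 and -148 bp in the first and second wild-type libraries and at -148 and -309 bp in the BAP1 knockout ones. The peak also touches Phf7, a PHD finger gene whose span ends at 31251344, just before Bap1 begins, and the summits lie inside that span. Which of both genes the signal belongs to cannot be told apart.

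In BAP1 knockout the Bap1 peak was longer on the Phf7 side. Its edge on that side lay 848 bp farther out in the first knockout library than in the first wild-type one, and 481 bp in the second pair. The edge inside Bap1 differed by 11 and 75 bp. Beyond it, the last 8220 bp of the Bap1 span held no peak in any of the 7 lists, so the lists do not show whether bases of the gene body were removed. With every RNF2 list shortened to the 4038 peaks of the shortest, the Bap1 peak was left in both wild-type libraries and in neither BAP1 knockout library. The first wild-type list is that shortest one and was not cut, so its Bap1 peak could not drop out. The −log10 q of the peak was 8.71 and 57.5 in the first and second wild-type libraries, and 15.5 and 76.2 in the BAP1 knockout ones. How many of all genes change in this way under the cut was not computed. The next RNF2 peaks beyond Bap1 lay in the dynein gene Dnah1 and the overlapping non-coding gene Gm35823, 9.67 and 9.44 kb after the end of Bap1, in the second wild-type and BAP1 knockout libraries.

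The BAP1 ChIP gave no peak at Bap1 in C91A cells, and none in BAP1 knockout cells, which serve as the control. No library holds a BAP1 ChIP of wild-type cells. The same was found for the whole set: 0 of 10 members held a BAP1 peak in C91A cells, beside 4.52% of all genes, and 0 of 10 in BAP1 knockout cells, beside 0.124%. At 4.52% per gene, a count of 0 among 10 is near the background. The closest C91A peak to any member was 44.5 kb from Foxk2, at Wdr45b. It was followed by a peak 168 kb from Foxk1, at Wipi2, and one 296 kb from Asxl2, at the DNA methyltransferase gene Dnmt3a. The C91A library was called with a fragment length of 50 bp and held 415 M tags, 12.7 times those of the BAP1 knockout control. Crosslinking with disuccinimidyl glutarate is given for the C91A cells and not for this control, so the control was not matched in these respects.

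The 3 genes most like Bap1 in the rank of their strongest RNF2 peak over the 4 libraries were Cyp46a1, a brain cholesterol hydroxylase, Dapk2, a kinase, and Il1rap, an interleukin-1 receptor subunit. Their distances from Bap1 were 3.50, 4.11 and 4.57 percentile points. Cyp46a1 had fold enrichments of 3.61 and 9.08 in wild type and 3.53 and 14.2 in BAP1 knockout. The measure compares ranks over 4 libraries alone.

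Among the cofactors, Asxl3 ranked highest of the 10 members in each of the 4 RNF2 lists, while Asxl1 and Asxl2 held 1 short peak each, in the second wild-type library. Asxl3 (chromosome 18, 22344077 to 22530227, 186 kb) had its highest fold enrichment at 5.79 and 20.6 in the first and second wild-type libraries, and at 6.84 and 19.5 in BAP1 knockout. This exceeded 72.0% and 98.6% of the peaks of the wild-type lists, and 65.6% and 96.2% of the BAP1 knockout lists. By this rank, the Asxl3 peak stood above most peaks of every list.

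RNF2 at Asxl3 formed 2 peaks on either side of a gap at the gene's lower-coordinate end. The gap measured 380 and 56 bp in wild type and 351 and 85 bp in BAP1 knockout. In every one of the 4 libraries the inner peak had the higher fold enrichment. The outer peak stood at 3.88 and 16.4 in wild type and at 4.99 and 8.33 in BAP1 knockout. Both also lie within 1 kb of the non-coding gene Gm41676. A further small peak lay about 95 kb inside Asxl3 in both second libraries (3.34 in wild type and 3.41 in BAP1 knockout). The second wild-type library alone listed 1 more peak, of 107 bp.

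At Asxl1 (chromosome 2, 153345830 to 153404007), the second wild-type library listed 1 peak of 120 bp with a fold enrichment of 2.66. Its summit lay 820 bp past the start, and its −log10 q was 3.25. At Asxl2 (chromosome 12, 3426857 to 3510811) the same library listed 1 peak of 219 bp with a fold enrichment of 2.87, its summit 547 bp past the start, and its −log10 q was 5.42. These exceeded 20.7% and 33.5% of the peaks of their list, and each lies near a non-coding gene too (2500004C02Rik and 1110002L01Rik). No other library listed a peak at either gene. In the second BAP1 knockout library the nearest peak to Asxl1 was 38.4 kb away, at Nol4l, and to Asxl2 38.7 kb away, at the kinesin gene Kif3c. With −log10 q of at least 10, no peak at Asxl1 or Asxl2 was left.

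**Figure D3:**
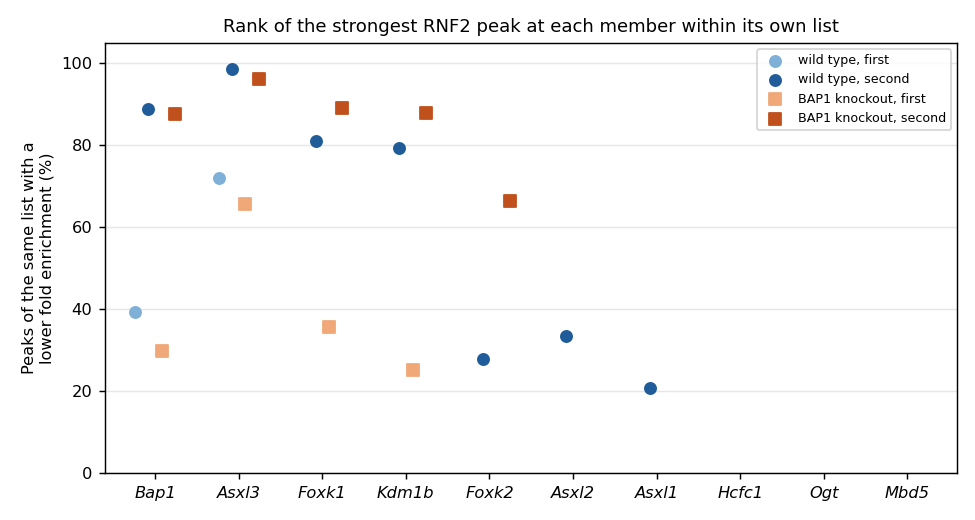
Percent of peaks in the same list with a lower fold enrichment than the strongest peak at each member, for wild-type (circles) and BAP1 knockout (squares) libraries; a member without a peak has no point. Asxl3 reached 98.6% and 96.2% in the second libraries, while Asxl1 and Asxl2 stood at 20.7% and 33.5% in the second wild-type list.

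The forkhead genes Foxk1 and Foxk2 both held RNF2 at their lower-coordinate end in the second libraries. Foxk1 (chromosome 5, 142401497 to 142462015) was without a peak in the shallower wild-type library. In the first BAP1 knockout library it had 1 peak of 546 bp with a fold enrichment of 3.79. Its strongest peak had a fold enrichment of 5.88 in the second wild-type library and 12.4 in the second BAP1 knockout library, above 81.1% and 89.1% of the peaks of each list. The peak over the gene's end measured 1100 bp in that wild-type library and 2897 bp in that BAP1 knockout library.

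Inside Foxk1, the second BAP1 knockout library listed 6 more peaks, with summits between 38929 and 50308 bp from that end, with fold enrichments of 2.97 to 3.56. No other library listed a peak there. The window thus held 7 peaks in that library and 2 in the second wild-type one. A surplus of 5 or more peaks in the second BAP1 knockout over the second wild-type library was found at 1.31% of all genes, and a deficit of that size at 0.161%. The first libraries did not repeat it: the first BAP1 knockout library, at 54.1 M tags, listed 0 peaks in this stretch.

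Foxk2 (chromosome 11, 121259987 to 121309900) held no peak in either first library. The second wild-type library listed peaks of 116 and 349 bp before and over the start, with fold enrichments of 2.78 and 2.49. The second BAP1 knockout library listed 1 peak of 807 bp with a fold enrichment of 4.40, which ends 18 bp before the RefSeq span. The strongest of these exceeded 27.8% of the wild-type list and 66.2% of the BAP1 knockout list. With −log10 q of at least 5, only the BAP1 knockout peak was left.

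Kdm1b, the histone demethylase gene (chromosome 13, 47043373 to 47085279), followed the pattern of Foxk1. The first wild-type library listed no peak, and the first BAP1 knockout library listed 1 of 769 bp with a fold enrichment of 3.32. The second wild-type library listed 2 peaks of 109 and 1181 bp, the stronger with a fold enrichment of 5.45. The second BAP1 knockout library listed 1 peak of 2397 bp with a fold enrichment of 11.4, which spans both wild-type peaks. The strongest peak exceeded 79.4% of the second wild-type list, and 25% and 87.9% of the first and second BAP1 knockout lists. These peaks lie within 1 kb of Tpmt, the thiopurine methyltransferase gene, whose span ends just before Kdm1b, and cannot be assigned to one of them.

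The length under RNF2 peaks was compared for genes with a peak in both genotypes of a pair. In the first pair, the ratio of BAP1 knockout to wild type was 3.63 at Bap1 and 1.42 at Asxl3, beside a median of 1.69 over 2840 genes, of which 93.7% were longer in the knockout. Bap1 exceeded 86.2% of these genes and Asxl3 34.7%. In the second pair the ratio was 1.45 at Bap1, 1.00 at Asxl3, 2.42 at Foxk1, 1.74 at Foxk2 and 1.86 at Kdm1b. The median over 11729 genes was 1.47, and 85.5% were longer. Bap1 was therefore above most genes in the first pair and at the median in the second, and Asxl3 was below the median in both. Longer peaks in BAP1 knockout at the other members were a property they shared with most genes.

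**Figure D4:**
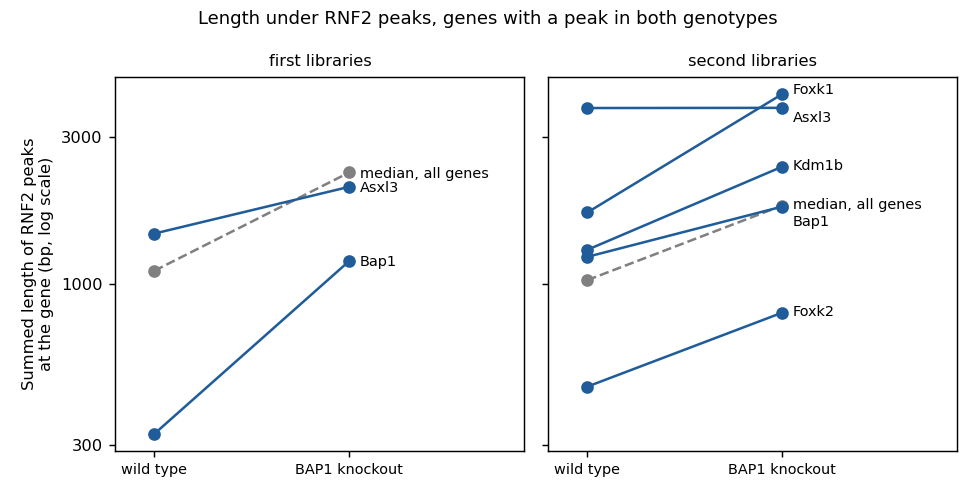
Summed length of RNF2 peaks at each gene (bp, log scale) in wild type and BAP1 knockout, for the first libraries (left) and the second (right); blue lines are members and the dashed grey line joins the medians of all genes with a peak in both. Asxl3 is flat in the second pair (3713 and 3718 bp), and Foxk1 goes from 1704 to 4119 bp.

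Hcfc1, Ogt and Mbd5 held no RNF2 peak in any library. Of all genes, 35.1% had none in the 4 wild-type and BAP1 knockout libraries. Hcfc1 (chromosome X, 73942792 to 73966995) and Ogt (chromosome X, 101640011 to 101684351) are the 2 X-linked members. The share of the 963 X-linked genes with an RNF2 peak, against that of the other genes, was 6.85% against 13.7% in the first wild-type library and 23.1% against 56.7% in the second. In the BAP1 knockout libraries it was 12.7% against 27.6% and 29.8% against 65.1%. The part of chromosome X in the absence of peaks at Hcfc1 and Ogt was not tested.

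Ogt lay near an RNF2 site without holding a peak itself. A peak at the gene Gm52429 lay 11.1 to 11.3 kb after the end of Ogt in all 4 libraries. Its fold enrichment was 3.13 and 13.7 in wild type and 9.68 and 17.7 in BAP1 knockout. The value of 3.13 lies below the median of the first wild-type list, 4.06, and the others lie above the medians of their lists. Around Hcfc1 the nearest peak was 61.4 kb away in the second wild-type library, at L1cam, and 20.5 kb away in the second BAP1 knockout library. Mbd5 (chromosome 2, 48949499 to 49319688) spans 370 kb, longer than 98.2% of protein-coding genes. Of the 402 genes at least as long, 17 (4.23%) had no RNF2 peak in any of the 4 libraries, Mbd5 among them. The nearest peak lay 55.3 kb beyond its higher-coordinate end in the second wild-type library and 44.1 kb in the second BAP1 knockout library.

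RNF2 was also listed at genes of other enzymes that take ubiquitin off histone H2A. Of 10 such genes, 3 held a peak in both wild-type libraries (Usp16, Usp22 and Usp44), beside 13.4% of all genes, and 3 in both BAP1 knockout libraries (Usp16, Usp3 and Usp44), beside 26.9%. The latter count is near the background. None of the 10 was gained or lost across the 4 libraries, beside 0.133% and 0% of all genes, so this is near the background too. Usp44 was the strongest, with fold enrichments of 4.72 and 16.5 in wild type and 17.1 and 22.0 in BAP1 knockout. Of 7 close relatives of the members (Mbd6, Kdm1a, Hcfc2, Uchl1, Uchl3, Uchl5 and Oga), 0 held a peak in both wild-type libraries and 1, Hcfc2, in both BAP1 knockout ones, beside the same shares. Neither list held a BAP1 peak in C91A cells (0 of 10 and 0 of 7), which is near the 4.52% of all genes.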

How the data were processed

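The submitters' processing notes name GSNAP and the genome build GRCm38 (mm10), with no version of the former. Peak calls came from MACS2 (version 2.1.0.20150420 for the first RNF2 libraries and both BAP1 libraries, 2.1.1.20160309 for the others), each ChIP library against its input, per the file headers. For each peak, the deposited lists hold a pileup signal, −log10 of the p-value and q-value, and the fold enrichment over local background (a ratio), all the authors' values. Fold enrichment is printed per library and ranked within its list, since depth and calling differed. Only −log10 q served as an alternative threshold, and signal was not used. The 7 inputs enter only through the calls.

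Only peaks on the autosomes and chromosomes X and Y were used. RefSeq genes of GRCm38.p6 gave 21779 protein-coding genes, after removal of 108 entries placed below 3 Mb on a chromosome (Y excepted). A gene held a peak where 1 bp or more overlapped its span plus 1 kb on each side. Overlap code was tested on simulated data (Python 3.11.15, pandas 2.3.3). No statistical test was made; an exact permutation test of 2 libraries against 2 could not pass a threshold of 0.05, and no model across genes was fitted to the peak lists. Named genes are the 10 members, fixed comparison lists and the 3 genes nearest to Bap1 in rank. Members and lists were chosen with earlier results of these data known. Alternatives were other windows, stricter −log10 q, lists of equal length and single libraries left out.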

Additional observations from a re-analysis of the deposited data

How the results depend on the processing

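For the counts of members above 0 (a peak in both wild-type or in both BAP1 knockout libraries), 17 of 22 alternative values stayed within 1.5 times the reported one. For the counts reported as 0 (gained, lost and BAP1 in C91A cells), 27 of 32 were 0 again. Over all genes 0.133% were gained, 0% were lost and 4.52% held a C91A peak. A count of 0 among 10 members was thus near the background beforehand. Some alternatives also coincide: for the wild-type count, leaving out the second library and taking the first libraries alone are the same calculation. Both tallies are therefore a description and no support for the counts. With −log10 q of at least 10, 1 member (Asxl3) kept a peak in both wild-type libraries and 2 (Asxl3 and Bap1) in both BAP1 knockout libraries. All 4 RNF2 lists were also brought to equal length, the 4038 peaks of highest −log10 q, which leaves the first wild-type list uncut. At that length 1 member (Asxl3) held a peak in both BAP1 knockout libraries and 1 (Bap1) counted as lost. Counts under this cut and under −log10 q of at least 10 were made for the 10 members only. No share of all genes stands beside them, so they cannot be set against the background. With the first libraries alone 2 members were gained (Foxk1 and Kdm1b). With the second alone 7 held a wild-type peak and 2 were lost (Asxl1 and Asxl2). Leaving out 1 library gave 2 to 7 members in wild type (7 without the first wild-type library), 4 to 5 in BAP1 knockout, 0 to 2 gained (2 without the second wild-type library) and 0 to 2 lost (2 without the first wild-type library). No member held a BAP1 peak in C91A cells under the 6 settings tried for it. The number of libraries with a peak at each member, looked at after seeing the data, differed at 6 members under −log10 q of at least 10 and under equal list length, at 2 (Asxl1 and Foxk2) under −log10 q of at least 5, and at 1 (Foxk2) with the gene span alone. No paired analysis was made. The labels number the second libraries only, so the pairs used above, first with first and second with second, are an assumption.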

Other observations

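Proteins that work with HCFC1 and OGT on chromatin, and the complexes of the histone methyltransferases MLL3 and MLL4, were looked at as neighbours of the complex. Of 22 partner genes of HCFC1 and OGT, 2 held an RNF2 peak in both wild-type libraries, the histone deacetylase gene Hdac2 (fold enrichment 9.43 and 16.1) and the methylcytosine dioxygenase gene Tet3 (3.28 and 20.7). In both BAP1 knockout libraries 5 did, with Kmt2b, Setd1b and Thap11 added. Over all genes the shares were 13.4% and 26.9%, and both counts are near them. In wild type these 3 had a peak in the second library only (3.97, 3.56 and 2.48). Tet1 and Tet2 differed from Tet3: Tet1 held no peak in any library, and Tet2 held one in the second libraries alone (3.34 in wild type and 1.92 in BAP1 knockout).

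Of the 6 genes of the MLL3 and MLL4 complexes, 0 held a peak in both wild-type libraries and 1, Ncoa6, in both BAP1 knockout libraries (3.36 and 8.20), which is also near the shares over all genes. Its wild-type peak was listed in the second library only (4.01). Neither list held a BAP1 peak in C91A cells, as 4.52% of all genes did. Among the marker genes, 1 of 8 fibroblast genes held BAP1 in C91A cells, and 0 of 8 embryonic stem cell genes, beside 4.52% of all genes. The 1 was Prrx1, a homeobox gene of mesenchyme. Prrx1 also held RNF2 in all 4 libraries, as did the fibroblast genes Thy1 and Twist2 and the stem cell gene Esrrb. Of the embryonic stem cell genes, 2 of 8, Pou5f1 and Zfp42, held a peak in the second BAP1 knockout library and not in the second wild-type one (2.38 and 2.64), as did 9.64% of all genes.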
